A study of Mus musculus with 12 samples.

Results

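The data compared RNA of normal intestine from mice heterozygous for a DNA methyltransferase allele (Dnmt+/-) with that from mice wild type at the same locus (Dnmt+/+). All mice were 91-day-old males of the Min/+ genotype, in which a mutation of 1 Apc copy leads to adenomas of the intestine, so the Dnmt+/+ group is itself a tumor-prone strain. The members are the 6 arrays labelled as normal intestine, of 12 arrays in the series. There were 3 arrays of each genotype, and each of the 3 numbered diets gave 1 array per genotype, so each difference below is a Dnmt+/- array minus the Dnmt+/+ array of the same diet. The other 6 arrays hold tumors of the same genotypes and diets and serve here only for a comparison between tissues. Which Dnmt gene was targeted is not numbered in the labels, nor do they give the composition of the diets or say whether an array holds 1 animal or a pool. P-values therefore measure only how far these samples differ among themselves, which may be technical in part, and with so few arrays every value is imprecise.

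DNA methyltransferases add methyl groups to cytosines that stand before a guanine, the CpG dinucleotide. Dnmt1 copies existing methylation to the new strand after replication, with Uhrf1 guiding it there, whereas Dnmt3a and Dnmt3b set new marks. In Min/+ mice a lowered dose of Dnmt1 is known to reduce the number of intestinal polyps, and the normal mucosa is the tissue from which those polyps arise.

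The promoters of the genes that matter most below differ widely in their CpG content, and 4 of them are shown to let a reader see that range. Each runs from 250 bases before to 50 bases after a RefSeq transcription start, 5′ to 3′ on the gene's strand, in assembly GRCm38.p6, with every CpG in capitals. The Dnmt1 window (chr9:20952574-20952873, minus strand, of 3 annotated starts the one with most CpG) holds 33 CpG, and 8.6% of 32851 promoters hold as many or more. These shares count every annotated start, not only the richest of each gene. The alpha globin gene Hba-a1 (chr11:32283422-32283721, plus strand) holds 4, and 68.6% of promoters hold as many or more. The adult beta globin genes Hbb-bs (chr7:103827879-103828178, minus strand) and Hbb-bt (chr7:103813874-103814173, minus strand) hold 2 and 1, and 85.9% and 94.6% of promoters hold as many or more.
Dnmt1: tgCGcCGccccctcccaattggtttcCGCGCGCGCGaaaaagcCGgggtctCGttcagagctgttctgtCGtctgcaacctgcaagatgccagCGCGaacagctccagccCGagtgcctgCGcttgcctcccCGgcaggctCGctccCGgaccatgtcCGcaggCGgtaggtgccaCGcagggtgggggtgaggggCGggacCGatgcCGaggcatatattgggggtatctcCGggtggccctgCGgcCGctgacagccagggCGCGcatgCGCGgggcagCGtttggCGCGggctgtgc
Hba-a1: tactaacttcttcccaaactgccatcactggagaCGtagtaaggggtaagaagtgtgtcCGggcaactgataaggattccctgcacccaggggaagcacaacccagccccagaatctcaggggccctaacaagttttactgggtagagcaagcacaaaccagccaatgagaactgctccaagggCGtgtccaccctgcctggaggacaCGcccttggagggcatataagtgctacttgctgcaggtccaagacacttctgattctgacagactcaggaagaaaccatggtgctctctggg
Hbb-bs: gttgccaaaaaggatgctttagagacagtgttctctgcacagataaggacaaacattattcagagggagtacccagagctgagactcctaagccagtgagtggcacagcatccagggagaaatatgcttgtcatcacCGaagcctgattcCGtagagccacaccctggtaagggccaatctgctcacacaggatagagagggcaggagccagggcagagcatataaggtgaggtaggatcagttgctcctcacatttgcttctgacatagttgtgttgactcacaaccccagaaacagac
Hbb-bt: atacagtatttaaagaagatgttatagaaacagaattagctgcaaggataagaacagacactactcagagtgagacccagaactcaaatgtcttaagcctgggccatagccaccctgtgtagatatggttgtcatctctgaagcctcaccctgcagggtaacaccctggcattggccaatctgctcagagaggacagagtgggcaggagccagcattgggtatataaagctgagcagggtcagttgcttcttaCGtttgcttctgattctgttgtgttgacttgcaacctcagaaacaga
Searched on both strands, the letters GATA stand once in the Hba-a1 window and 2 times in each beta globin window, and the letters CCAAT stand 1, 1 and 3 times in Hba-a1, Hbb-bs and Hbb-bt. Of all promoters, 57.9% hold GATA and 37.4% hold CCAAT, so a match here describes the sequence and no more.

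Levels are given as normalized intensity, the brightness of a probe set after all arrays were brought to the same distribution of values, with a floor at 44.8. In diet #1 the deposited values themselves stop at 50, which held for 5695 probe sets of the Dnmt+/- array and 5258 of the Dnmt+/+ array out of 12422. A gene at that floor on both arrays of diet #1 has no difference there. For a gene at it on 1 array, the size of the difference depends on the floor and is not a bound. Normalization opened a step above that floor: on the Dnmt+/+ array a deposited 50 became 44.8 and a deposited 51.2 became 123.5. Of the 6412 features tested, 587 had 1 array of diet #1 at a floor and 397 had both. As a check of the labelled tissue, the 20 measured brush border and digestion genes had a mean log2 level of 10.7 to 11.6 on the 6 arrays, and the 20 lipid absorption genes one of 11.5 to 12.2. Genes of the exocrine pancreas, which lies against the upper small intestine, had a mean log2 level of 12.3 and 12.5 on the 2 arrays of diet #2 and of 7.8 to 8.1 on the other 4. That excess was shared by both genotypes, and its part in the diet #2 values was not tested.

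Across all features no gene passed the test between genotypes. With limma and diet as a block, 0 of 6412 features (0%) had an adjusted p under 0.05, and the smallest adjusted p was 0.831. At an unadjusted p under 0.05 there were 197 features (3.07%), of which 96 (1.5%) were higher and 101 (1.58%) lower in Dnmt+/- intestine. None of the genes below can therefore be called changed, and each is given by its values. A weaker description is the count of features that lay on the same side in all 3 diets. In Dnmt+/- intestine 820 features (12.8%) were higher in every diet and 758 (11.8%) were lower in every diet. Without any normalization of the deposited values the same counts were 333 and 937, with median scaling 611 and 974, and with mean scaling 916 and 608. A difference of at least 1.5-fold in every diet was found for 6 features in the higher direction (0.0936%) and 14 in the lower (0.218%). Among the higher, all but a probe set shared by Tcp10a, Tcp10b and Tcp10c had an array at a floor. Among the lower, Celsr2, Mpp7, Gga2, Aard, Mcm10, Wwtr1 and a feature without a symbol did. For these features the 1.5-fold rule was met in part through the floor.

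The 3 diets gave differences of unequal width. The SD of the differences over features was 0.78 on the log2 scale in diet #1, 0.37 in diet #2 and 0.36 in diet #3. At least 2-fold differences made up 12.9%, 2.34% and 2.13% of the features measured. The diet #1 values include 587 features with 1 array at a floor, whose differences are enlarged by the step above that floor. How much of the wider spread of diet #1 comes from these features was not tested. Across features, the differences of diet #1 correlated with those of diet #2 at r = 0.040 (6009 features) and with those of diet #3 at 0.040 (6001 features). Diets #2 and #3 correlated at −0.015 (6387 features). These are descriptions over features of single array pairs, and features are not independent replicates. In the plot of diet #2 against diet #3 the cloud has no tilt. Hba-a1, Hbb-b2, a probe set shared by beta globin genes and 1 immunoglobulin feature lie outside its dense centre. Hba-a1 ranked 58 and 121 among the lower differences of diets #2 and #3, so other features lay farther out in each.

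**Figure D1:**
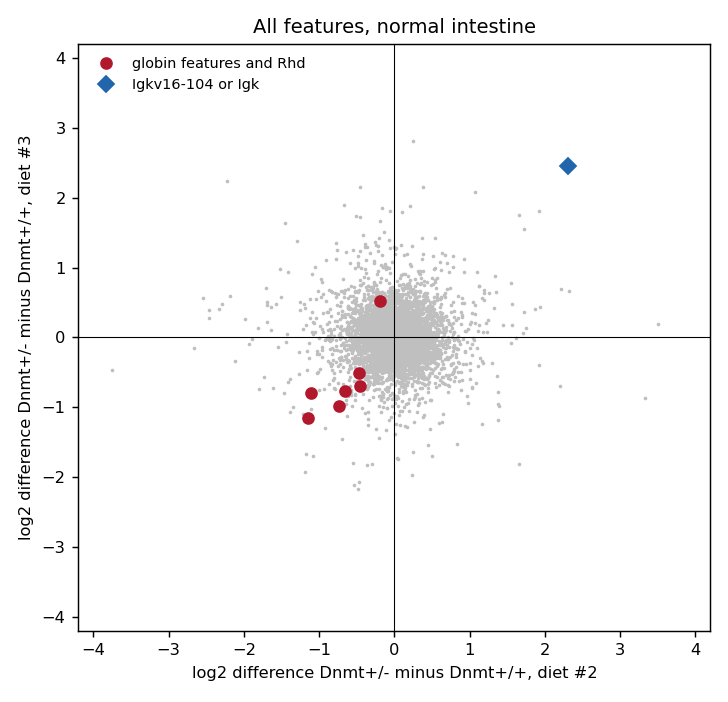
Log2 difference of Dnmt+/- minus Dnmt+/+ normal intestine in diet #2 (x axis) against diet #3 (y axis), 1 point per feature measured in both. Red circles are the globin features and Rhd, of which all but Hbb-bh1 lie in the lower left; the blue diamond is the Igkv16-104 or Igk probe set at 2.31 and 2.45.

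Among the methylation genes themselves, the Dnmt1 transcript was lower in Dnmt+/- intestine in both diets in which it was above the floor. Dnmt1, the maintenance methyltransferase, had normalized intensities of 503 and 422 in Dnmt+/- intestine of diets #2 and #3 and of 667 and 579 in Dnmt+/+ intestine. Both arrays of diet #1 were at the floor of the file for this probe set. Over diets #2 and #3 the levels of the genotypes did not overlap, with differences of −0.41 and −0.45. The fitted log2 difference over 3 diets was −0.24 ± 0.17 (SE), with an unadjusted limma p of 0.22. That fit takes in the floor values of diet #1, 48.9 in Dnmt+/- and 44.8 in Dnmt+/+ intestine, which hold no measured difference. A second, dimmer probe set for Dnmt1, below the filter, differed by 0.014 and 0.44 in diets #2 and #3. The mutant allele is not described in the labels, so the position of these probes relative to it is unknown and the values do not check the genotype.

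Of the 10 tested writers, erasers and readers of the mark, Dnmt1 included, 8 had a fitted difference below 0 and 2 above, with a median of −0.16, but the medians were −0.32, 0.028 and 0.060 in diets #1 to #3. Dnmt3a, a de novo methyltransferase, had levels of 132 and 143 in Dnmt+/- against 102 and 113 in Dnmt+/+ intestine of diets #2 and #3, while in diet #1 the Dnmt+/- array was at the floor and the Dnmt+/+ array at 142. Its fitted difference of −0.27 was 0.28 with median scaling, 0.33 with mean scaling, 0.21 without normalization and 0.36 without diet #1. Uhrf1, which guides Dnmt1 to replicated DNA, differed by 0.21, −0.46 and 0.044 in diets #1 to #3. Mbd3, a subunit of the NuRD repressor complex, was lower in Dnmt+/- intestine in each diet, at 1589, 875 and 685 against 2035, 968 and 867, a log2 difference of −0.28 ± 0.12 (SE) with an unadjusted p of 0.072. It was the only one of the 10 tested writers, erasers and readers of DNA methylation on the same side in all 3 diets (10%, against 11.8% of all features lower). Dnmt3b was not analysed here.

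Genes known to be controlled by methylation were mostly dim or lay on both sides. Of 17 imprinted genes tested, which are expressed from 1 parental allele, 3 were higher in all 3 diets (17.6%) and 0 lower, with a median difference of 0.11 against 0.0041 for all features, and without normalization 1 of 15 was higher (6.67%, against 5.2% of all features). Those 3 were Dlk1, a Notch pathway ligand, the matrix proteoglycan Dcn and Gnas, a G protein subunit, at 0.28, 0.21 and 0.14. Igf2, a fetal growth factor, had levels of 524 and 793 in Dnmt+/- against 455 and 489 in Dnmt+/+ intestine of diets #2 and #3 and was at the floor on both arrays of diet #1. H19, its imprinted neighbour, was not analysed here. Of 17 germline genes on the array whose promoters are methylated in somatic tissue, 1 was bright enough to test. That gene, Tnp1, which packs sperm DNA, differed by −1.63, 0.0071 and 0.25 in the 3 diets. Of 14 folate and one-carbon genes, which supply the methyl groups, 3 were lower in all 3 diets (Gart, Ggh and Gamt) and 1 was higher (Mat2b). Those shares were 21.4% and 7.14%, against 11.8% and 12.8% of all features. For Ggh the Dnmt+/- array of diet #1 was at the floor, and the difference in diet #3 was −0.044.

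Genes of low, middle and high promoter CpG content all had median differences close to 0. For the 4552 named features matched to a RefSeq promoter, of 5649, the median log2 difference was 0.012 for the 1578 genes with 0 to 17 CpG in the window, 0.0024 for the 1535 with 18 to 27 and 0.0041 for the 1439 with 28 to 65. Where a gene had several starts, the one with most CpG was taken. The share higher in all 3 diets was 12.7%, 13.2% and 12.9% in these classes, and the share lower was 11.9%, 12.1% and 10.98%. The classes differed in spread, with SDs of 0.34, 0.29 and 0.26.

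Adult globin genes, which encode the protein chains of haemoglobin in red cells, were lower in Dnmt+/- intestine in each diet, with levels in Dnmt+/+ intestine 1.48 to 2.45-fold as high. Hba-a1, an adult alpha globin gene, had normalized intensities of 1448, 1596 and 1631 in Dnmt+/- intestine of diets #1 to #3 and of 3151, 3456 and 2836 in Dnmt+/+ intestine. Every Dnmt+/- array lay below every Dnmt+/+ array, and the level in Dnmt+/+ intestine was 2.02-fold that in Dnmt+/- intestine, a log2 difference of −1.01 ± 0.13 (SE) with an unadjusted limma p of 0.0014 and an adjusted p of 0.88. Hbb-b2, a beta globin gene, had levels of 264, 343 and 445 against 776.5, 569 and 881. The groups again did not overlap, with a difference of −1.09 ± 0.20 (SE) and an unadjusted p of 0.0054.

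A beta globin probe set annotated to Hbb-bt, Hbb-bs, Hbb-b1 and Hbb-b2 gave the same picture at higher brightness. Its levels were 1451, 2004 and 2777 in Dnmt+/- intestine and 4296, 4448 and 6176 in Dnmt+/+ intestine. The groups did not overlap, and the log2 difference was −1.29 ± 0.14 (SE) with an unadjusted limma p of 0.000795, the smallest but one of all features. A probe set shared by Hba-a2 and Hba-a1 differed by −0.57 ± 0.12 (SE), and the alpha globin pseudogene Hba-ps3 by −0.42 ± 0.16 (SE). These genes are near-identical copies, so probes may measure several of them, and the probe sets are not separate measurements of separate genes. Of 6 globin probe sets tested 5 were lower in all 3 diets, and the exception was the embryonic gene Hbb-bh1 at 0.090, −0.19 and 0.52. Over all 10 globin probe sets on the array, including 4 too dim to test, 5 were lower in every diet and 5 lay on both sides or at the floor.

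Other genes of the red cell lineage gave a mixed picture. Rhd, a red cell membrane protein of the Rh complex, had levels of 159, 82.8 and 80.1 in Dnmt+/- intestine and of 240, 130 and 136 in Dnmt+/+ intestine. It was lower in each diet, with overlap between diets, at −0.67 ± 0.11 (SE) and an unadjusted p of 0.0037. Rhag, its partner in the membrane, differed by 0.048, 0.11 and −0.26, and Klf1, the erythroid transcription factor, by −0.61, 0.75 and 0.36. The transferrin receptor Tfrc, which takes up iron in red cell precursors, differed by −0.60, 0.20 and 0.29. Of the 7 red blood cell genes tested, globin genes included, 3 were lower in all 3 diets (42.9%, against 11.8% of all features) and 0 higher. Those 3 were Rhd and the globin genes Hba-a1 and Hbb-b2 described above. Rhd was thus the only member other than a globin gene that was lower in each diet. The summed intensity of the 7 genes was 4566 to 5080 in Dnmt+/- and 6253 to 7898 in Dnmt+/+ intestine. Without Hba-a1, the sums of the other 6 genes were 3119, 3195 and 3449 in Dnmt+/- and 4746, 3118 and 3417 in Dnmt+/+ intestine of diets #1 to #3, so in diets #2 and #3 they were slightly higher in Dnmt+/- intestine. In bulk tissue, fewer cells of a type and less RNA per cell cannot be told apart.

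**Figure D2:**
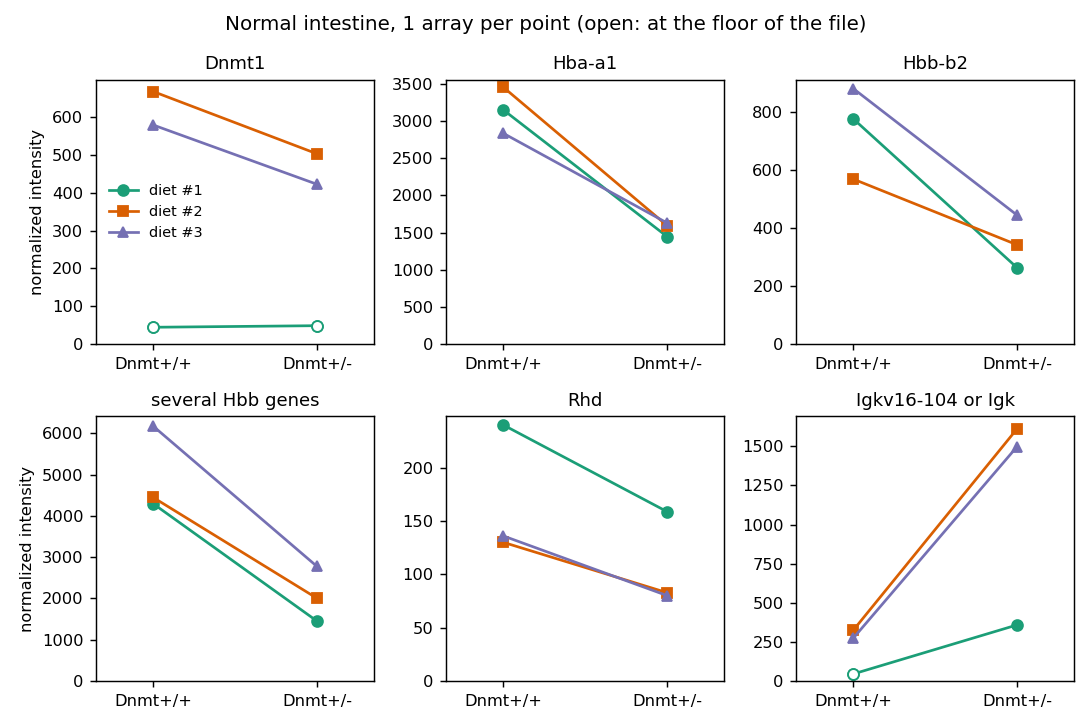
Normalized intensity (y axis, from 0) on each of the 6 normal intestine arrays, with the arrays of 1 diet joined; open symbols mark values at the floor of the deposited file. Globin features and Rhd run downward from Dnmt+/+ to Dnmt+/- in each diet, Dnmt1 does so in diets #2 and #3, and the Igkv16-104 or Igk probe set runs upward in each diet.

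The feature with the smallest p lay in the opposite direction and belongs to the immunoglobulin light chain locus. A probe set annotated to Igkv16-104 and Igk, a kappa variable gene and its locus, had levels of 358, 1613 and 1499 in Dnmt+/- intestine and of 44.8, 325 and 274.5 in Dnmt+/+ intestine. The Dnmt+/+ array of diet #1 was at the floor of the file, so the difference of 3.00 in that diet depends on that floor. The deposited values there were 136 in Dnmt+/- and 50 in Dnmt+/+ intestine. Diets #2 and #3 gave 2.31 and 2.45. The fitted log2 difference was 2.59 ± 0.18 (SE), with an unadjusted limma p of 0.00013 and an adjusted p of 0.831. It passed the threshold only on values without normalization, at 2.17 with a limma adjusted p of 0.017.

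The rest of the antibody genes did not share that size. A probe set for the kappa constant region (Igkv4-59 and Igkc) had levels of 9727, 3841 and 2636 against 7566, 2856 and 1764, a difference of 0.46 ± 0.12 (SE). Of 38 immunoglobulin probe sets tested, 5 were higher and 0 lower in all 3 diets, with a median difference of 0.041. The share on the higher side was close to the 12.8% of all features, of which 11.8% were lower. Of all 78 on the array, dim ones included, 5 were higher and 8 lower. Markers of B and plasma cells gave 1 of 21 higher (4.76%) and 3 lower (14.3%). The higher one was Irf4, a plasma cell transcription factor, at 0.70. The lower ones were Cd79a and Pax5 of B cells at −0.61 and −0.95 and the J chain gene Jchain at −0.11. The summed intensity of that list was 92260 to 106200 in Dnmt+/- and 90590 to 109100 in Dnmt+/+ intestine.

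The genes with the smallest unadjusted p among those on the same side in every diet, 12 each way, were otherwise of mixed function. None had an adjusted p under 0.88 in the limma fit, and 9 of the 24 had an array at a floor, which makes their fold depend on it. Among the higher genes, Me1, the cytosolic malic enzyme that makes NADPH for fatty acid synthesis, had levels of 176, 420 and 496 in Dnmt+/- intestine against the floor of 44.8, 245 and 221 in Dnmt+/+ intestine. It was higher in each diet at 1.31 ± 0.27 (SE). Scd1, the enzyme that makes monounsaturated fatty acids, had levels of 1737, 617 and 2051 against 1309, 389 and 1342, a difference of 0.56 ± 0.12 (SE). A second Scd1 probe set gave 0.81. Levels of Scd1 in diet #2 lay below those of the other diets in both genotypes, and the groups overlap across diets.

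Stk11, the kinase LKB1 whose loss causes intestinal hamartomas, had levels of 435, 378 and 514 against 302, 265 and 362, and the groups did not overlap. Its differences were 0.53, 0.51 and 0.51. Ephb3, a crypt receptor and Wnt target that positions epithelial cells, was at 917, 60.4 and 78.1 against 690, the floor of 44.8 and 50.1. Ppp1r15a, a stress-induced phosphatase subunit, was at 148, 315 and 158 against the floor of 44.8, 144 and 95.2. Its deposited values in diet #1 were nearly equal, 51.8 in Dnmt+/- and 50 in Dnmt+/+ intestine, so its difference there comes from the floor. The remaining higher genes were Rps29, Cd59a, Ece1, Cnn1, Prep, Nol7 and Ccdc93, with differences between 0.46 and 0.93. Of these, Rps29, a ribosomal protein at the floor on 2 Dnmt+/+ arrays, had a second probe set that lay on the other side at −0.18.

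Among the lower genes, Slc11a2 had the widest difference. This iron transporter of the upper small intestine had levels of 467, 7333 and 269 in Dnmt+/- intestine and of 4729, 16610 and 851 in Dnmt+/+ intestine. Its level varied more between diets than between genotypes, its differences were −3.34, −1.18 and −1.66, and a second probe set gave −0.21. The iron oxidase Heph differed by −0.42, 0.43 and −0.32. Of 13 genes of the proximal small intestine, 1 was higher (7.69%) and 3 were lower (23.1%) in all 3 diets. All features gave 12.8% and 11.8%. St3gal4, a sialyltransferase, was bright on every array, at 6805, 7750 and 8673 against 13560, 11560 and 14660, and the groups did not overlap. Its difference was −0.78 ± 0.14 (SE) with an unadjusted limma p of 0.0044.

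Abca1, which exports cellular cholesterol, was at 350, 128 and 272 against 503, 187 and 350, a difference of −0.48 ± 0.11 (SE). A second, dimmer Abca1 probe set, below the filter, lay on the other side at 0.87 and 0.88 in diets #2 and #3. Its Dnmt+/+ arrays were at the floor, and both arrays of diet #1 were as well. Gga2, an adaptor of trafficking from the Golgi, was at 48.9, 169 and 57.2 against 169, 358 and 185. Pzp, a protease inhibitor of the alpha-2-macroglobulin family, was at 194, 108 and 62.1 against 315, 215.5 and 104. The Dnmt+/- array of diet #1 was at the floor for Gga2, for Aard, for the glutamate transporter Slc1a2, for the signalling phospholipase Plcg2 and for Wwtr1, the TAZ coactivator of the Hippo pathway. These last 4 differed by −1.46, −0.94, −1.11 and −1.01.

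**Figure D3:**
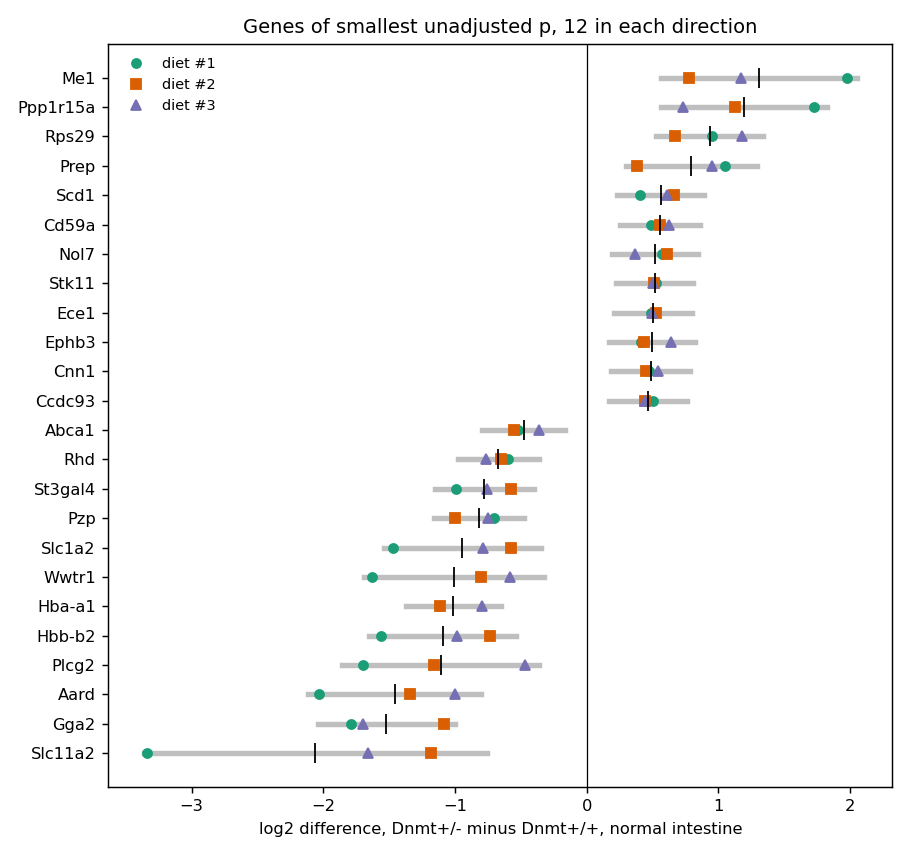
Log2 difference of Dnmt+/- minus Dnmt+/+ normal intestine (x axis) for the 24 genes named by the rule; coloured symbols are the 3 diets, the tick is the fitted value and the grey bar its 95% confidence interval. The 3 diets lie on the same side of 0 for each gene because the rule asked for it. Diet #1 lies farthest out for Slc11a2 at −3.34 and for Me1 at 1.98. For Me1 the Dnmt+/+ array of that diet was at the floor.

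Of the interferon-induced genes, many lay on the lower side in Dnmt+/- intestine in every diet. These genes answer the cytokines that signal viral infection and microbial contact. Of 29 tested, 13 were lower in all 3 diets (44.8%, against 11.8% of all features) and 1 higher, with a median difference of −0.22 against 0.0041. Irgm1, a GTPase of cell-autonomous immunity, had levels of 248.5, 151 and 307 against 312, 188 and 457, a difference of −0.40 ± 0.12 (SE). Ifit3, an antiviral RNA-binding protein, had levels of 171, 539 and 392 against 324, 634.5 and 551, at −0.55 ± 0.18 (SE). Neither passed the adjusted test. The other 11 were Ifi204, Cxcl9, Ifit1, Ifi27l2a, Isg15, Ifitm1, Igtp, Usp18, Irf7, Ly6e and Tap2, and the exception was Mx2 at 0.30.

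The size of the interferon difference was unequal across diets. The list's median difference was −0.49 in diet #1, −0.024 in diet #2 and −0.15 in diet #3, and its summed intensity was 30180, 38850 and 33510 in Dnmt+/- against 41300, 38540 and 35970 in Dnmt+/+ intestine. In diet #2 the sum was thus slightly higher in Dnmt+/- intestine. With diet #1 left out, 15 of the 29 were lower in both other diets (51.7%, against 22.9% of all features). Of immune cell markers measured beside them, 3 of 13 T and NK cell genes were lower in all 3 diets (Thy1, Trgv4 and Gzma) and 1 higher (Il2rb), against 11.8% and 12.8% of all features, with a median of −0.24. Myeloid and inflammatory cell genes gave 3 lower and 2 higher of 17, with a median of −0.026. Their part in the interferon values was not tested. All 8 MHC class II genes, which interferon gamma also induces, had fitted differences below 0 with quantile normalization, but their medians were −0.75 in diet #1, −0.090 in diet #2 and 0.32 in diet #3.

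Chaperones and genes of the unfolded protein response were the other large group on the lower side. Of 38 tested, 14 were lower in all 3 diets (36.8%, against 11.8% of all features) and 3 higher, with a median difference of −0.17. They included proteins of the endoplasmic reticulum and of the cytosol. Manf, a secreted protein induced by stress of the endoplasmic reticulum, had levels of 925, 1901 and 1230 against 1366, 2383 and 1637, a difference of −0.43 ± 0.12 (SE). Stip1, which links the chaperones Hsp70 and Hsp90, was at 438, 270.4 and 300 against 556, 325 and 423, at −0.37 ± 0.12 (SE). Hspa1a, the inducible Hsp70, differed by −1.48, −0.81 and −0.18, and Hspa5, the main chaperone of the endoplasmic reticulum, by −0.59, −0.23 and −0.062.

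The others lower in each diet were Pdia6, Tcp1, Cryab, Atf3, Hspa8, Dnajb9, Hspe1, Hsp90b1, Hsp90aa1 and Dnajb1, and those higher were Cct4, Hspb8 and Dnajc3. The list's medians were −0.18, −0.094 and −0.10 in diets #1 to #3. With diet #1 left out, 18 of 38 were lower in both other diets (47.4%, against 22.9% of all features). Immediate early genes, which answer handling and stress within minutes, gave 4 of 23 higher and 4 lower in all 3 diets. Each share was 17.4%, against 12.8% and 11.8% of all features. The part of immediate early genes in the chaperone values was not tested.

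Genes of fatty acid oxidation lay on the higher side. The nuclear receptor PPAR alpha drives these genes in the fasted or fat-fed intestine and liver. Of 28 genes of fatty acid oxidation, ketogenesis and PPAR targets, 12 were higher in all 3 diets (42.9%, against 12.8% of all features) and 2 lower, with a median difference of 0.13. Without normalization 5 were higher (17.9%, against 5.2% of all features) and 3 lower (10.7%, against 14.6%). Acaa1b, a peroxisomal thiolase, had levels of 2008, 1613 and 2418 against 1312, 1358 and 2075, a difference of 0.36 ± 0.14 (SE). A second Acaa1b probe set gave 0.056 and 0.070 in diets #2 and #3 and was at the floor in diet #1. Angptl4, a secreted inhibitor of lipoprotein lipase, was at 576, 786 and 941 against 457, 332 and 795, at 0.61 ± 0.25 (SE). Other Angptl4 probe sets gave 0.10 and −0.43. Ppara itself differed by 0.046, 0.60 and 0.55, and Cpt1a, the gate of mitochondrial fatty acid import, by 0.054, 0.30 and 0.51.

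Lipid-related groups beside it did not all share the direction. Of 25 genes of cholesterol synthesis and SREBP targets, 6 were lower in all 3 diets (24%, against 11.8% of all features). Another 4 were higher (16%, against 12.8% of all features), and 15 lay on neither side throughout. The 6 lower genes, Msmo1, Fdps, Sqle, Idi1, Hmgcs1 and Fdft1, encode enzymes on the path to cholesterol, at differences between −0.44 and −0.26. The 4 higher genes were Me1 and Scd1 of fatty acid synthesis, Ggps1, which diverts isoprenoids to geranylgeranyl groups, and Mvk, itself an enzyme on the path to cholesterol, at 1.31, 0.56, 0.41 and 0.14. Of 20 lipid absorption genes 4 were higher in all 3 diets (20%, against 12.8% of all features) and 1 lower (5%, against 11.8%). Slc27a2, a very long chain acyl-CoA synthetase, was at 1269, 1102 and 2106 against 834, 815 and 1754.

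Smooth muscle and fat cell genes were on the higher side as well. Of 15 smooth muscle genes, which belong to the muscle coats and not to the epithelium, 6 were higher in all 3 diets (40%, against 12.8% of all features) and 0 lower, with a median difference of 0.17. Without normalization 4 were higher (26.7%, against 5.2% of all features) and 1 lower. Cnn1, the contractile regulator calponin, was at 1327, 638 and 771 against 958, 468 and 531, a difference of 0.49 ± 0.11 (SE). Tagln, an actin-binding protein of the same cells, was at 2655, 1644 and 1931 against 1611, 1346 and 1587, and the groups did not overlap. The summed intensity of the list was 39660, 22340 and 25230 in Dnmt+/- against 30610, 20870 and 24340 in Dnmt+/+ intestine. Of 13 fat cell genes, 5 were higher in all 3 diets (38.5%), among them Cidec, Fabp4 and Car3, and 1 was lower, but without normalization 1 was higher (7.69%, against 5.2% of all features) and 2 lower (15.4%, against 14.6%). Several genes of fatty acid oxidation are also active in muscle and fat, and the part of these cells in the values of that group was not tested.

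In epithelial and proliferative lists at most 25% of the tested members lay on 1 side in all 3 diets. The shares of all features were 11.8% lower and 12.8% higher. Of 51 cell cycle genes, 10 were lower in all 3 diets (19.6%) and 3 higher (5.88%), with a median of −0.059, and with mean scaling 6 were lower. The mitotic ubiquitin ligase gene Ube2c was at 172, 167 and 94.6 against 245, 213 and 225, without overlap between groups. Of 16 Wnt targets and crypt stem cell genes, 3 were higher (18.8%) and 1 lower (6.25%) in all 3 diets. Of 20 brush border and digestion genes, 1 was higher (5%) and 5 were lower (25%). Of the lower, 3 were the sugar transporters Slc2a2, Slc2a5 and Slc5a1 at −0.22, −0.27 and −0.16. Of 20 goblet cell genes 5 were higher (25%) and 2 lower (10%), and of 5 Paneth cell genes none lay on 1 side in all 3 diets. Apc, the gene mutated in these mice, differed by −1.45, −0.38 and 0.34 in the 3 diets, and its fitted value of −0.50 was 0.035 with median scaling.

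**Figure D4:**
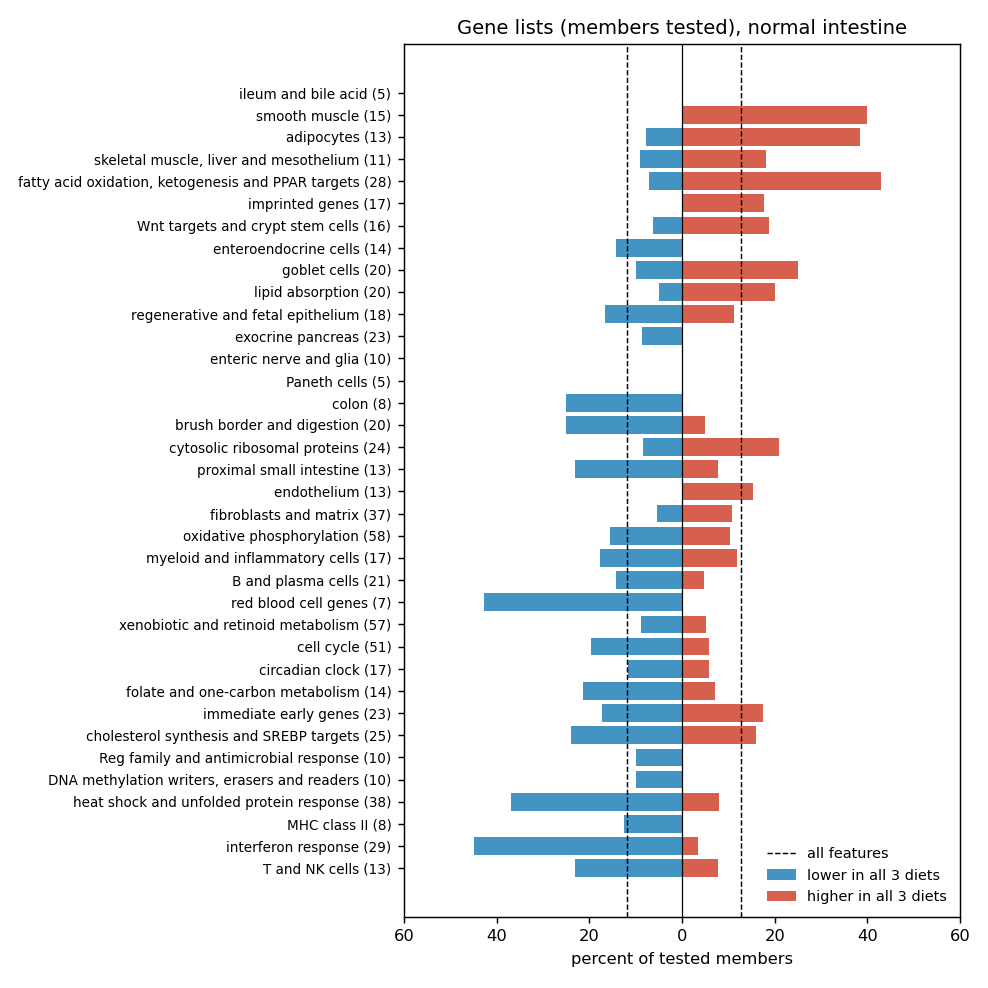
Percent of the tested members of each gene list that were lower (blue, to the left) or higher (red, to the right) in Dnmt+/- normal intestine in all 3 diets, for lists with at least 5 tested members, sorted by median difference. Dashed lines mark the shares of all 6412 features, 11.8% and 12.8%; interferon response reaches 44.8% on the lower side and fatty acid oxidation 42.9% on the higher side.

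The same genes in tumors show how far the normal tissue stands alone. The tumor arrays are separate hybridisations of the same 3 diets, and the labels do not say whether tumor and normal tissue with the same sample code came from the same animal. In tumors 0 of 6412 features passed the same limma test, with 375 (5.85%) at an unadjusted p under 0.05. The test of whether the genotype difference itself differed between normal intestine and tumor gave 0 features past an adjusted p of 0.05 and 262 (4.09%) at an unadjusted p under 0.05, with a smallest adjusted p of 0.925. Features lower in all 3 diets in both tissues numbered 145 (2.26%) and features higher in both 114 (1.78%). Of the 24 genes named above, 15 had the same sign in tumors and 5 lay on that side in all 3 tumor diets. The 24 were chosen for lying on 1 side in all 3 normal diets, so all such features are the like background. Of 820 such features on the higher side 114, and of 758 on the lower side 145, lay on that side in all 3 tumor diets. The share of all features with the same sign in both tissues was not counted.

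Hba-a1, Hbb-b2 and the shared beta globin probe set were lower in Dnmt+/- arrays of every diet in both tissues. In tumors Hba-a1 was at 1852, 2381 and 1800 in Dnmt+/- and at 2694, 3014 and 4729 in Dnmt+/+ arrays, a difference of −0.76. The difference in normal intestine minus that in tumors was −0.25 ± 0.31 (SE), with an unadjusted p of 0.44, so no difference between tissues was detectable. Hbb-b2 differed by −0.98 and the shared beta globin probe set by −1.23 in tumors, and Rhd by −0.68 with the Dnmt+/- tumor array of diet #2 at the floor. The probe set shared by Hba-a2 and Hba-a1 differed by −0.073, 0.024 and −0.76 in the tumor diets, and Hba-ps3 by a fitted −0.28. The Igkv16-104 or Igk probe set was higher in each tumor pair, at 3.65, 1.45 and 1.39, with the Dnmt+/+ array of diet #1 again at the floor. Ephb3 had fitted values of opposite sign in the tissues, at 0.49 in normal intestine and −0.65 in tumors. The tumor diets gave −1.49, 0.31 and −0.77, and in normal intestine the Dnmt+/+ array of diet #2 was at the floor. The protease inhibitor Pzp was at the floor on all 3 Dnmt+/+ tumor arrays and on 1 Dnmt+/- tumor array, so its tumor difference in the plot rests on that floor.

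**Figure D5:**
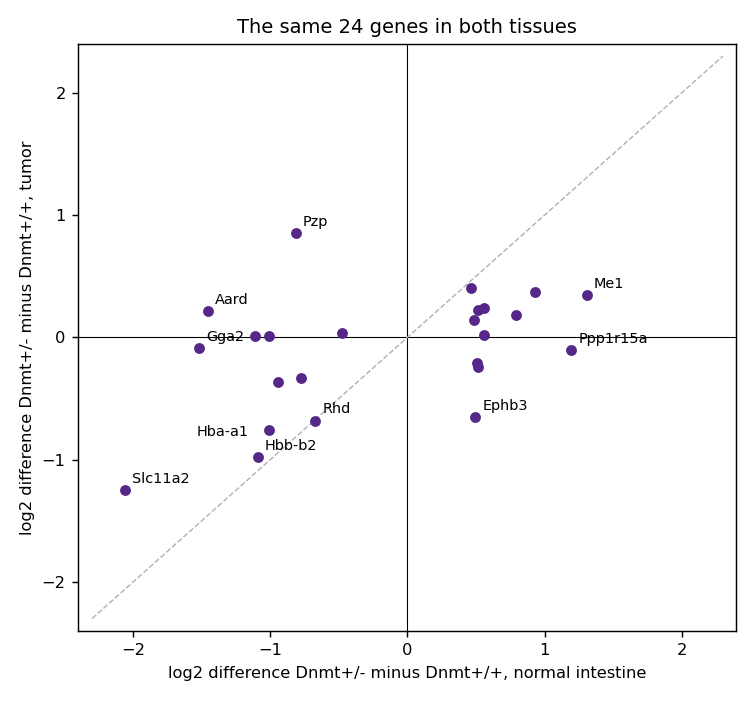
Fitted log2 difference of Dnmt+/- minus Dnmt+/+ in normal intestine (x axis) and in tumor (y axis) for the 24 named genes, with the dashed line of equal differences. The globin genes and Rhd lie near that line, at −1.01 and −0.76 for Hba-a1, and 9 of the 24 genes have opposite signs in the tissues.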

How the data were processed

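Per the labels, 6 Affymetrix MG_U74Av2 arrays of a single colour measured RNA of normal intestine, and another 6 that of tumors. The authors deposited 1 linear intensity value for each of 12488 probe sets. For the probe summary, software was not given in the sources used here. On the diet #1 arrays the deposited intensity stops at 50 and was not scaled, while the other arrays have a mean of 1000, so diet and file format coincide. Genotype is balanced within each diet.

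Here, 66 control probe sets were removed, the other 12422 were quantile normalized over 12 arrays, values under the 20th percentile (44.8) were raised to it, and log2 was taken. The dimmest 40% of probe sets, by mean over the normal arrays, were left out, and the brightest stood for its gene, which left 6412 features, 5649 with 1 gene symbol. By the platform annotation, 10833 probe sets had 1 symbol, 396 several and 1193 none, and 10817 matched RefSeq names of GRCm38.p6. A second probe set of a named gene had the same sign in 6 of 10 cases.

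Genotype was fitted with limma 3.58.1 in R 4.3.3 on the 6 normal arrays with diet as a block (2 residual degrees of freedom), and P-values were adjusted by Benjamini-Hochberg over all features with a threshold of 0.05. The diet numbers pair the arrays by label, and deviations of the paired arrays from the genotype means correlated at 0.76, 0.78 and 0.72 in diets #1 to #3. The test between tissues used all 12 arrays with each tissue and diet as a block. No pair of arrays was a near-duplicate. In diet #1 a difference with both arrays at a floor was left out of counts of direction, but not out of the fit. Lists (38, with 1346 entries) were described by counts and medians, without a test.

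The rule for named genes took the 12 named genes each way of smallest unadjusted p on the same side in all 3 diets, 2 members of each list, the 5 of smallest p between tissues, and Dnmt, Apc, globin and imprinted genes. Probe sets shared by several genes and list members beyond these were named after their values were seen. The members and lists were chosen with earlier results of these data known. Alternatives were other scalings, floors, filters, probe set rules, variance priors and blocks, and each diet left out in turn.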

Additional observations from a re-analysis of the deposited data

Results flagged for a closer look

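These results had every diet on 1 side in normal intestine and every diet on the other side in tumors. The value given is the log2 genotype difference in normal intestine minus that in tumor, and in no case did limma's test of it pass (adjusted p of 0.925 for each), with 262 of 6412 features at an unadjusted p under 0.05. Stmn3, a microtubule regulator of neurons, stood at −1.08 ± 0.16 (SE), with −0.24 in normal intestine and 0.83 in tumor. Acaa1b, the peroxisomal thiolase, stood at 1.16 ± 0.18 (SE), from 0.36 and −0.80, while a second probe set differed by 0.085 in normal intestine. Apoc2, the activator of lipoprotein lipase, stood at 0.81 ± 0.16 (SE), from 0.13 and −0.68. The B cell receptor subunit Cd79a stood at −2.59 ± 0.75 (SE), from −0.61 and 1.99, with the Dnmt+/+ tumor array of diet #1 at the floor, so the size depends on that floor. The lipid droplet protein Cidec stood at 1.32 ± 0.43 (SE), with the Dnmt+/- tumor array of diet #1 at the floor, and the glucuronosyltransferase Ugt2b5 at 1.10 ± 0.29 (SE).

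The other differences between tissues were narrower. Nol7, a nucleolar protein, stood at 0.76 ± 0.21 (SE) and the endotoxin receptor Cd14 at −0.77 ± 0.26 (SE). The clock repressor Cry1 stood at −0.60 ± 0.23 (SE), the calponin Cnn2 at −0.55 ± 0.18 (SE), the galectin Lgals3 at −0.54 ± 0.19 (SE), and the NuRD subunit Mbd3 at −0.47 ± 0.16 (SE). The members of each genotype group number 3 in each tissue, too few for a test of single arrays that stand apart.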

How the results depend on the processing

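The count of features past an adjusted limma p of 0.05 between genotypes in normal intestine was 0 under every alternative run but one. Without normalization it was 1, the Igkv16-104 or Igk probe set at 2.17 (smallest adjusted p 0.017). With each diet left out in turn it was 0, and features at an unadjusted p under 0.05 numbered 275 without diet #1, 150 without diet #2 and 149 without diet #3. Without the diet as a replicate block the count was 0 with 21 features at an unadjusted p under 0.05, and with diet as a random block it was 0 as well. Mean scaling gave the highest unadjusted count, 315. The count between tissues was 0 in every alternative, and 0 with 34 features at an unadjusted p under 0.05 without the replicate block. The scaling without normalization moved the median of all features to −0.088.

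Of 1623 recomputed differences of 101 named features, 1610 kept their direction and side of the threshold, 1 came to pass it and 12 changed sign. Most of these features were chosen by p or direction in these data, so the count is no measure of stability. Tnp1 became 0.048 with median and 0.097 with mean scaling, and ran from −0.81 to 0.13 with a diet left out (0.13 without diet #1). Apc became 0.035 and 0.083 with the same scalings. Dnmt3a became 0.28, 0.33 and, without normalization, 0.21, and ran from −0.60 to 0.36 with a diet left out (0.36 without diet #1). With a diet left out, Mptx1 ran from −0.84 to 0.0038 (without diet #2), Uhrf1 from −0.21 to 0.13 (without diet #2), and Hbb-bh1 from −0.048 (without diet #3) to 0.30. The cause was not tested. Leaving out 1 array of a diet gives the same estimate as leaving out both. Signal near the floor in diet #1 limits every dim gene.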

Other observations

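Of the 20 features that differed by at least 1.5-fold on the same side in all 3 diets, 3 are described here, chosen after their values were seen. Celsr2, a cadherin of planar cell polarity, had levels of 126 and 46.1 in Dnmt+/- intestine of diets #2 and #3 against 205 and 126 in Dnmt+/+ intestine, and in diet #1 the floor against 355. In tumors the same gene lay on the other side in all 3 diets, at 1.78, 0.25 and 1.31. The replication initiator Mcm10 was lower in every diet in both tissues, at −1.20 in normal intestine and −0.46 in tumors, with the Dnmt+/- array of diet #1 at the floor in normal intestine. The keratin Krt36 was at 318, 728 and 203 in Dnmt+/- intestine against the floor, 249 and 118 in Dnmt+/+ intestine, a difference of 1.72 ± 0.43 (SE). In tumors of diets #2 and #3 it was at 591 and 996 against 247 and 184.

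Alb, the serum albumin gene made by liver, had its widest difference in diet #2, at 135 in Dnmt+/- and 1818 in Dnmt+/+ intestine, where both arrays also carried exocrine pancreas RNA.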
